A study of Mus musculus with 3 samples.

Results

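Levels of the microRNAs miR-215, miR-194 and miR-192, all made in the intestinal epithelium, were followed across 3 cultures of mouse intestinal organoids, which are hollow epithelial structures grown in a gel from intestinal stem cells. The members are the 7 probes that carry these names, covering both arms of 4 hairpin precursors, of 1265 microRNA probes on each array. They were picked by name, as the products of 2 gene clusters known from differentiated intestinal epithelium, when earlier results of these data were known. Wild-type organoids came from the normal epithelium of the intestine of wild-type mice. Tumour organoids came from tumours of the intestine in ApcMin mice, whose germline holds a truncating mutation of Apc, a suppressor of Wnt signalling. Treated tumour organoids were ApcMin tumour organoids exposed to 1 uM of 5-Aza-CdR (decitabine), a nucleoside that traps DNA methyltransferases. All cultures were kept in Matrigel without serum and received EGF, Noggin and R-spondin 1, a Wnt agonist, so the normal organoids also had an external Wnt signal. The length of exposure to 5-Aza-CdR, the intestinal segment, the age of the mice and the number of mice per culture were not stated in the labels. With 1 array in each group, the differences below stand without replicates and without a test, and array, culture and group cannot be told apart.

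A microRNA is cut from a hairpin precursor whose arms, called 5p and 3p, can each give a mature strand; one of them is usually kept and the other mostly degraded. Bases 2 to 8 of the mature strand, the seed, pair with target messenger RNAs and largely decide which of them are repressed. miR-192, miR-194 and miR-215 are abundant in gut, liver and kidney epithelium, their genes are activated by the hepatocyte nuclear factors HNF1 and HNF4, and in human cells p53 induces them and they slow the cell cycle.

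The mature sequences are shown because they set what each probe can tell apart. They were taken from RefSeq on GRCm38.p6, where all 7 names matched, and are written 5′ to 3′ with the seed in capitals.
miR-215-5p: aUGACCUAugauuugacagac
miR-192-5p: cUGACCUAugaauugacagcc
miR-194-5p: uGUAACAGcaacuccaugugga
miR-215-3p: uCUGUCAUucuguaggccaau
miR-192-3p: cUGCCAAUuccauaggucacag
miR-194-1-3p: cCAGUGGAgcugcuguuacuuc
miR-194-2-3p: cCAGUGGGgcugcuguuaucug
miR-192-5p and miR-215-5p share the seed UGACCUA and are identical at 18 of 21 positions. Counted from 1 at the 5′ end of miR-192-5p, with its base first, they differ by C1A, A12U and C20A. Among 1679 mouse mature microRNA names in RefSeq these are the only 2 with that seed. No other name has the miR-194-5p seed GUAACAG. The passenger strands miR-194-1-3p and miR-194-2-3p are identical at 18 of 22 positions and differ by A8G, C19U, U20C and C22G, the first of which lies in the seed. Probe sequences were not used here, so how far the probes of each such pair share signal was not tested.

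The 2 clusters pair a miR-194 hairpin with one of the miR-192/miR-215 family. On chromosome 1, Mir194-1 (chr1:185313319-185313385) and Mir215 (chr1:185313581-185313692) lie on the plus strand, 195 bases apart, inside the span of Iars2 (chr1:185286642-185329419), a mitochondrial isoleucyl-tRNA synthetase gene on the minus strand. On chromosome 19, Mir194-2 (chr19:6264643-6264728) and Mir192 (chr19:6264844-6264932) lie on the plus strand, 115 bases apart, in the interval between Atg2a, which ends 2338 bases before them, and the long non-coding gene Gm14963, 3861 bases after them. The exon structure of these genes was not used here. The hairpins of the miR-194 genes are printed because both release the same miR-194-5p, while their 3p arms differ; mature strands are in capitals.
Mir194-1: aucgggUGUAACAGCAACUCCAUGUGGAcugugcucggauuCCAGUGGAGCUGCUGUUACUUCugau
Mir194-2: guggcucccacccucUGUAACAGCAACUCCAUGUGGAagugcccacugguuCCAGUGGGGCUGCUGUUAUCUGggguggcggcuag
The miR-194-5p probe therefore reads both loci together. The probes for miR-215-5p, miR-215-3p and miR-194-1-3p stand for the chromosome 1 locus, and those for miR-192-5p, miR-192-3p and miR-194-2-3p for the chromosome 19 locus.

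Levels are given first as the scanner's spot intensity above the mean of the 1664 blank spots of the same array, in the scanner's linear units, with nothing done to make arrays comparable. Detection was set at 2 SD of the blanks over their mean, a limit that 954 probes passed in wild-type, 959 in tumour and 914 in treated tumour organoids. All 7 members were detected on each array, and none of their spots was marked as bad at any scanner gain. Above the brightest negative control spot, a stricter limit, were 7 of 7 members in wild-type organoids and 4 of 7 in tumour organoids without and with treatment. Of all probes, 413, 410 and 408 were above it on the wild-type, tumour and treated tumour arrays. Probes differ in how well they bind and label, so levels are compared between arrays for 1 probe and not between probes.

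The main strands come first. miR-215-5p, made only from the chromosome 1 locus, stood at 1241 above blank in wild-type, 33.4 in tumour and 19.7 in treated tumour organoids. Tumour organoids thus held 2.69% of the wild-type signal of this probe, a ratio of 37.2, and their spot still lay above the brightest negative control. miR-194-5p, the strand released from both loci, stood at 3483 in wild-type, 877 in tumour and 369 in treated tumour organoids, which left 25.2% of the wild-type signal in tumour organoids. The probe for miR-192-5p, from the chromosome 19 locus and with the seed of miR-215-5p, stood at 2210.25, 800.5 and 347 in the same order, which left 36.2%. All these strands were brightest in wild-type organoids and dimmest in treated tumour organoids. In bulk RNA, fewer cells of a type and less of a microRNA per cell cannot be told apart.

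The passenger strands were dim. miR-215-3p, the partner strand of miR-215-5p, stood at 46.6 in wild-type, 2.75 in tumour and 1.64 in treated tumour organoids. Its last 2 values were 2.42 and 2.19 blank SD above the blank mean, and they fell under a limit of 3 SD. miR-192-3p, the partner of miR-192-5p, stood at 41.9, 15.1 and 5.39, and 36.0% of its wild-type signal was left in tumour organoids. miR-194-1-3p, from the chromosome 1 copy of miR-194, stood at 18.97, 10.97 and 8.28. miR-194-2-3p, from the chromosome 19 copy, stood at 24.3 in wild-type, 27.5 in tumour and 16.02 in treated tumour organoids. It was the only member whose signal above blank was not brightest on the wild-type array. Each 3p probe of the miR-192/miR-215 family thus went the way of its 5p partner from wild-type to tumour organoids, while the miR-194 passenger strands left 57.8% (chromosome 1) and 113% (chromosome 19) of the wild-type signal.

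**Figure D1:**
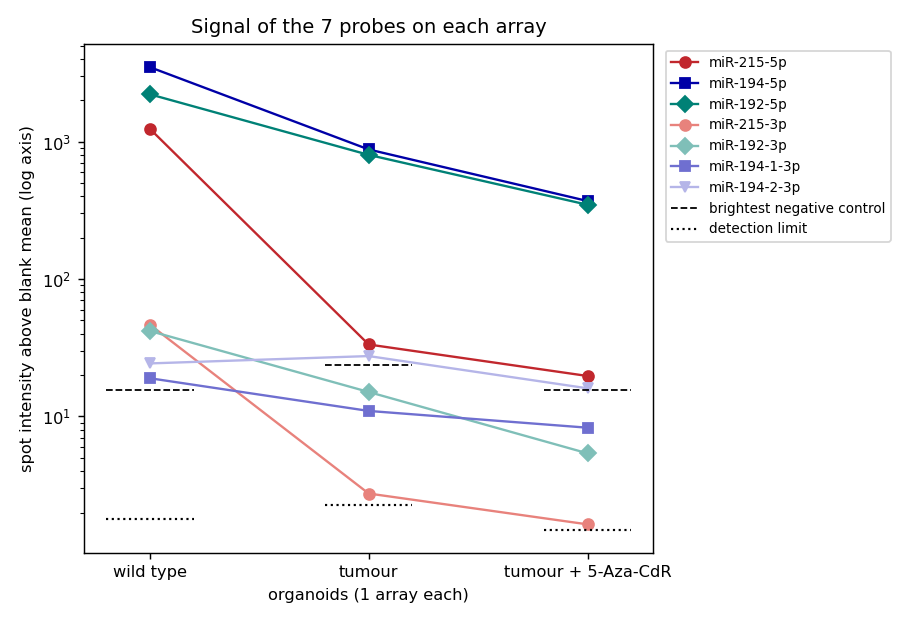
Spot intensity above the blank mean (vertical, log axis) of the 7 probes on the 3 arrays (horizontal, 1 array each). Dashed lines mark the brightest negative control and dotted lines the detection limit of each array. miR-215-5p drops from 1241 to 33.4 between wild-type and tumour organoids, while miR-194-2-3p changes from 24.3 to 27.5.

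The arrays differed in overall brightness, so differences between them were taken after normalization. Spots of the first spike control, the same on each array, averaged 8030 ± 464 for wild-type, 7951 ± 801 for tumour and 5007 ± 339 for treated tumour organoids (SD, n = 8 spots each). The background was corrected with limma's normexp model fitted on the blanks, an offset of 50 was added, and the 1265 probes were quantile normalized and put on the log2 scale. The offset draws differences of dim probes towards 0. The 8 spike spots of an array had a log2 SD of 0.08, 0.14 and 0.10, which combines to 0.17, 0.17 and 0.13 for the difference of tumour and wild-type, treated and untreated, and treated and wild-type arrays. This is spot error alone and leaves out differences between cultures, extractions and hybridisations. It comes from bright spots without the offset, so it does not measure the error of dim probes.

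The first comparison asked how these microRNAs stand in tumour organoids against normal ones. At 2-fold, 4 of the 7 members were lower and 0 higher in tumour organoids, where 1.35% of the 1040 probes detected on at least 1 of the 2 arrays were lower and 1.25% higher. The median log2 difference of the members was -1.04, beside 0.003 over all 1040 probes, and all 7 were below 0, as were 48.0% of all probes. The members share loci and sequence and are not independent of one another, and earlier results of these data were known when they were chosen.

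The normalized log2 level of miR-215-5p was 10.46 in wild-type and 6.24 in tumour organoids, a difference of -4.22, the lowest of the 1040. Over 9 ways of processing, 8 of them alternatives, it ranged from -5.72 to -2.33. miR-194-5p went from 12.27 to 9.67, a difference of -2.60 with a range of -2.68 to -1.45. These differences are many times the spike spot error of 0.17.

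miR-192-5p went from 11.91 to 9.48, a difference of -2.44. It ranged from -2.52 to -1.38 in 8 of the 9 ways of processing and took the opposite sign, 0.26, with the background that the files list for each spot. Its signal above blank was 2.76-fold lower in tumour organoids before normalization and 5.41-fold lower after it, and for miR-194-5p the same step moved 3.97-fold to 6.07-fold. With 1 factor per array, taken from the median over all probes, in place of quantiles, the log2 differences were -1.88 for miR-192-5p and -2.40 for miR-194-5p, and with the spike controls as scale they were -1.38 and -1.90.

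Of the passenger strands, miR-215-3p was at the 2-fold limit with a difference of -1.04, which ranged from -4.78 to 0.13. miR-192-3p followed at -0.71 (range -2.10 to -0.02), miR-194-1-3p at -0.29 (-1.32 to 0.01) and miR-194-2-3p at -0.13 (-0.38 to 0.06). The last is smaller than the spike spot error. With the blank mean subtracted and no offset, 6 of the 7 were at least 2-fold lower, all except miR-194-2-3p, where 8.75% of all probes were; in the authors' values it was also 6 of 7, where 4.01% were. By locus, the chromosome 1 probes miR-215-5p, miR-215-3p and miR-194-1-3p were at -5.72, -4.78 and -1.32 with the blank mean subtracted, and the chromosome 19 probes miR-192-5p, miR-192-3p and miR-194-2-3p at -2.52, -2.10 and -0.38. Whether the loci differ was not tested.

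**Figure D2:**
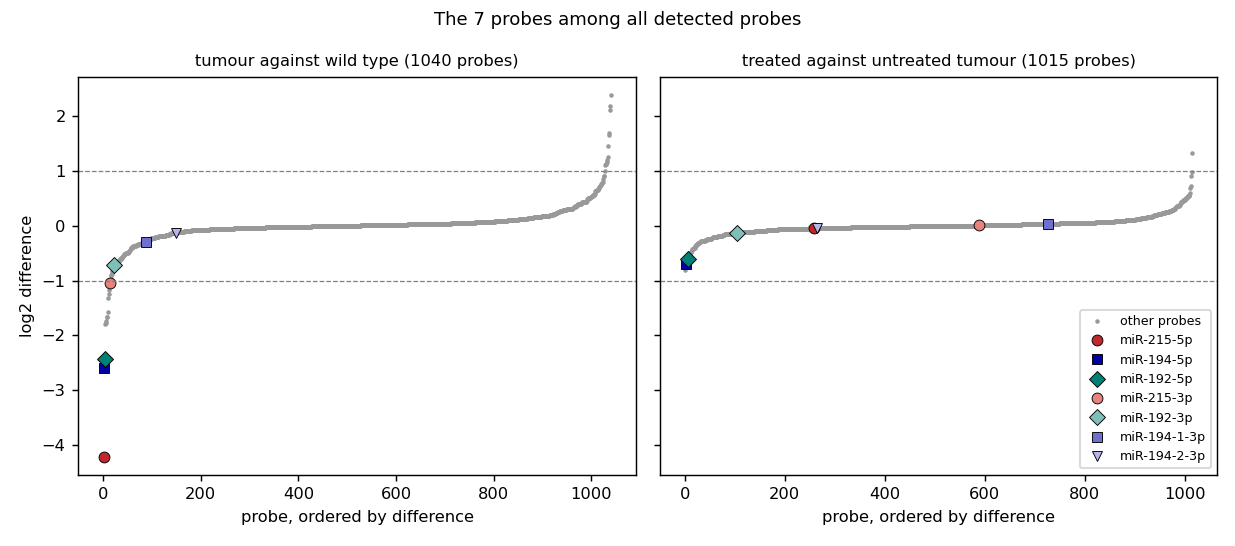
Normalized log2 difference (vertical) of every detected probe, ordered from lowest to highest (horizontal), in tumour against wild-type organoids (1040 probes) and in treated against untreated tumour organoids (1015 probes). Coloured symbols are the 7 members, grey points the other probes, and dashed lines mark 2-fold. In the left panel the 3 main strands hold the lowest places, miR-215-5p at -4.22, miR-194-5p at -2.60 and miR-192-5p at -2.44.

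The second comparison asked whether the members stand higher or lower in tumour organoids exposed to the methyltransferase inhibitor. None of the 7 was 2-fold different; of the 1015 probes detected, 0.0% were 2-fold lower and 0.0985% higher. miR-194-5p was lower by a log2 difference of -0.69, from 9.67 to 8.98, and miR-192-5p by -0.60, from 9.48 to 8.87. They held the third and the sixth lowest place among the 1015 probes. At 1.5-fold these were the 2 members called lower, where 0.591% of all probes were. Both exceeded the spike spot error of 0.17. Both took the opposite sign with the per-spot background, at 1.10 for miR-194-5p and 0.24 for miR-192-5p.

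miR-215-5p was at 6.24 and 6.20, a difference of -0.05 (range -0.36 to -0.02), smaller in size than the spike spot error. Its signals, 33.4 and 19.7 above blank, are both under the offset of 50, so the offset draws their difference towards 0 and its size is uncertain. The passenger strands were at -0.13 for miR-192-3p, -0.05 for miR-194-2-3p, 0.03 for miR-194-1-3p and 0.004 for miR-215-3p. These too are smaller in size than the spike spot error, which was taken from bright spots and cannot say whether such dim probes differ. Their signals too are under the offset of 50, which draws these differences towards 0. With the blank mean subtracted and no offset they were at -0.87, -0.16, 0.21 and 0.125 in the same order. In the authors' values miR-192-3p was at -1.08 and was 1 of 7 members called 2-fold lower, where 3.95% of probes were. The median of the members was -0.05, beside -0.01 over all 1015 probes, with 5 of 7 below 0 and 53.7% of all probes below 0. In any of the 9 ways of processing, 1 member was 2-fold higher after treatment, miR-194-5p with the per-spot background, where 2.17% of all probes were.

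The third comparison set treated tumour organoids against wild-type organoids. It shares an array with each of the other comparisons and is not separate evidence. At 2-fold, 4 of 7 members were lower, where 1.36% of 1027 probes were lower and 1.27% higher. The probe of miR-215-5p was at -4.26 (range -6.02 to -2.37), that of miR-194-5p at -3.29 (-3.43 to -0.35) and that of miR-192-5p at -3.04 (-3.18 to 0.50). miR-215-3p was at -1.03, miR-192-3p at -0.85, miR-194-1-3p at -0.26 and miR-194-2-3p at -0.17. None of the 3 main strands lay nearer the wild-type level with treatment than without it in any of the 9 ways of processing, except miR-194-5p with the per-spot background (-0.35 with and -1.45 without treatment).

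**Figure D3:**
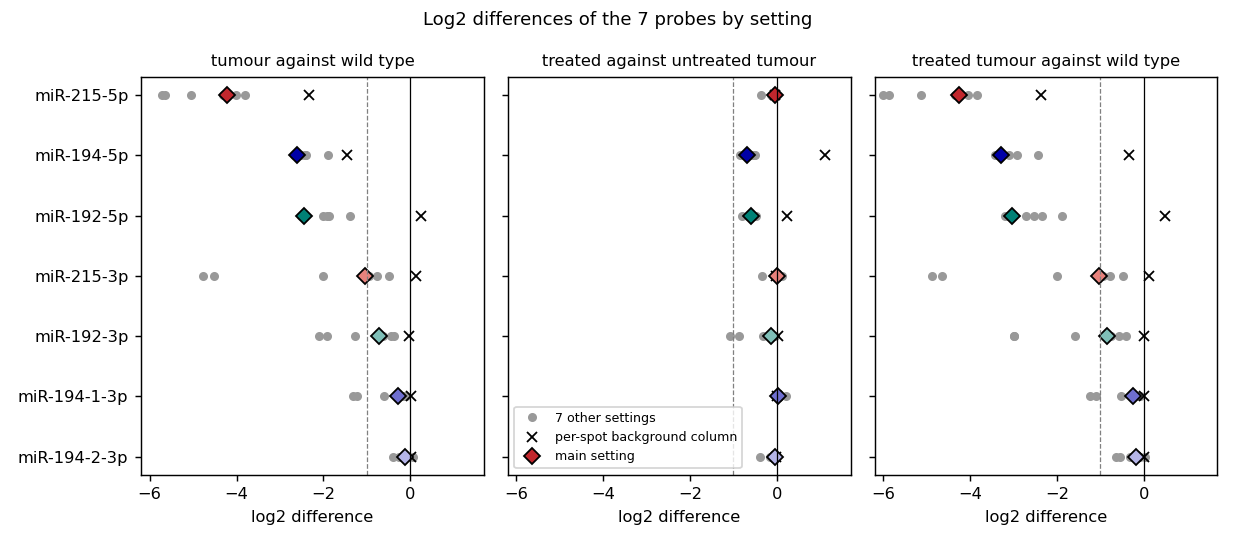
Log2 differences (horizontal) of the 7 members (vertical) in the 3 comparisons. Diamonds are the main setting, grey dots 7 other settings and crosses the per-spot background column; the dashed line marks 2-fold lower. In tumour against wild type the miR-192-5p cross lies at 0.26 and its other points between -2.52 and -1.38.

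The choice of background turned most of the directions that changed. Of 21 sign changes among the members' differences, 14 came with the per-spot background, and the other 7 concerned passenger strands alone. Scaling to the spike controls turned miR-194-2-3p to 0.06 in tumour against wild-type and to 0.02 in treated tumour against wild-type organoids, and the authors' values turned miR-215-3p to -0.35 in treated against untreated tumour organoids. The files list a background median beside each spot, and this column followed the spot's own signal (r = 0.99, 0.99 and 0.98 on the log scale over the probes of the 3 arrays). For miR-192-5p it was larger than the spot median on every array, at 117%, 124% and 110% of it in wild-type, tumour and treated tumour organoids, so nothing of that probe was left after subtraction. For miR-194-5p it was 96.7%, 114% and 61.4% of the spot, so the treated array alone kept a large part of the signal. For miR-215-5p it was close to the same share on each array, 74.7%, 75.0% and 75.2%, and this probe stayed lowest in treated and highest in wild-type organoids with that background. Among probes more than 200 above blank, the column had a median of 82.1%, 90.8% and 65.0% of the spot and exceeded the spot for 18 of 122, 34 of 146 and 15 of 122 probes. Neither headers nor labels say how this column was measured.

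**Figure D4:**
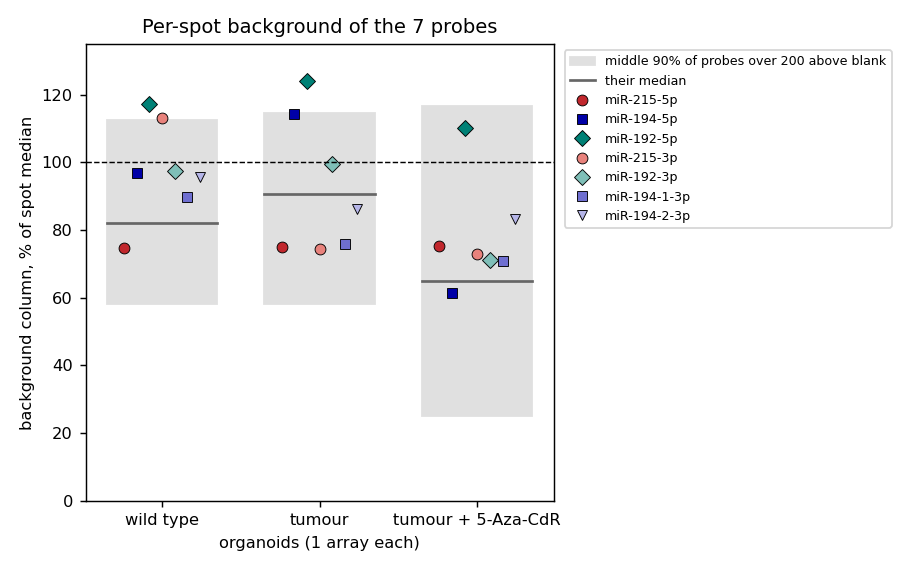
The background column as a percentage of the spot median (vertical) for the 7 members on the 3 arrays (horizontal). Grey boxes span the middle 90% of probes more than 200 above blank, grey lines their median, and the dashed line marks 100%. miR-192-5p lies above 100% on all 3 arrays, and miR-215-5p at 74.7%, 75.0% and 75.2%.

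By likeness of pattern, measured as the distance between normalized log2 levels after each probe was centred on its mean over the 3 arrays, miR-192-5p and miR-194-5p lay 0.18 apart. miR-215-5p was 1.29 from the first and 1.15 from the second. Among 441 probes that are not members, were detected on all 3 arrays and exceeded the negative controls on at least 1, the same 3 came closest to each main strand: miR-378a-3p, miR-378c and miR-6236. Their distances were 1.03, 1.10 and 1.18 to miR-192-5p, and 2.13, 2.21 and 2.20 to miR-215-5p. To miR-194-5p they were 1.21, 1.28 and 1.36. miR-378a-3p stood at 198 above blank in wild-type, 51.9 in tumour and 36.6 in treated tumour organoids, and its log2 difference between tumour and wild type was -1.67. For miR-6236 the levels were 2145, 1358 and 1123 and the normalized difference was -1.77. Before normalization its wild-type and tumour levels were less than 2-fold apart, so the size of its difference depends on that step. After normalization none of the 3 was lower in treated than in untreated tumour organoids, while miR-192-5p and miR-194-5p were. The normalized differences were 0.08 for miR-378a-3p, 0.08 for miR-378c and 0.39 for miR-6236. Before normalization all 3 were dimmer on the treated array. For miR-378c the signals above blank were 36.6 in untreated and 27.6 in treated tumour organoids. Both miR-378 probes were dim in tumour organoids, so the offset draws their differences towards 0 and the size of these is uncertain. With 3 arrays such a likeness is only a description.

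The epithelial label was checked against the miR-200 family, which keeps cells epithelial. All 5 of its probes exceeded the negative controls on each array, with summed signals above blank of 4134, 5038 and 3680 in wild-type, tumour and treated tumour organoids. None of the 5 was 2-fold different in tumour against wild-type organoids, where 1.35% of all 1040 probes were lower and 1.25% higher. The log2 differences of the 5 ran from -0.36 for miR-200b-3p to 0.14 for miR-200c-3p. The gut secretory markers miR-375-3p, of endocrine cells, and miR-7a-5p were at -0.51 and -0.29. The liver marker miR-122-5p, which would mark another tissue rich in miR-192 and miR-194, was no more than 2.56 above blank on any array.

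Markers of non-epithelial cells were dim. The 7 fibroblast and smooth muscle probes summed to 115, 133 and 90.9, of which 3, 3 and 2 exceeded the negative controls, and their defining members miR-143-3p and miR-145a-5p were at 9.75 and 4.77 in wild-type and 2.40 and 4.01 in tumour organoids. Brighter were miR-143-5p, at 32.5 in wild-type, 46.6 in tumour and 33.0 in treated tumour organoids, miR-199a-5p, at 15.6, 28.4 and 14.04, and miR-214-3p, at 42.6, 35.5 and 26.6. The 6 blood cell probes summed to 32.4, 66.5 and 30.3, with miR-223-3p the single one above the negative controls (20.7, 41.9 and 18.2), and miR-142-3p and miR-144-3p not detected on any array. The endothelial (7.18, 11.7 and 5.44), striated muscle (19.8, 31.4 and 21.2) and neuronal (5.73, 5.50 and 7.61) pairs had lower sums still. Of these probes miR-133a-3p of striated muscle exceeded the negative controls on each array, at 17.6, 29.7 and 19.9. All these signals lie under the offset of 50, so normalized differences of these probes say little about their size, and their part in the results for the members was not tested.

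Other microRNAs that p53 induces were set beside the members. Of 10 such probes 0 were 2-fold lower and 0 higher in tumour against wild-type organoids, where 1.35% and 1.25% of all 1040 probes were. The median of the 10 was -0.20, beside 0.003 over all probes, and 8 of them were below 0, as were 48.0% of all probes. For miR-34b-5p, miR-34c-5p, miR-143-3p and miR-145a-5p these counts decide nothing. They were too dim to pass 2-fold in any comparison once the offset was added. Above blank they stood at 7.30, 8.23, 9.75 and 4.77 in wild-type organoids. In tumour organoids they stood at 1.75, 3.19, 2.40 and 4.01. Among the 6 brighter than the negative controls, miR-107-3p was at -0.88, miR-16-5p at -0.63, miR-15a-5p at -0.47, miR-141-3p at -0.26, miR-200c-3p at 0.14 and miR-34a-5p, the best-known p53 target, at 0.49. In treated against untreated tumour organoids miR-34a-5p was higher by 0.91, while miR-194-5p and miR-192-5p were lower by the amounts given above, and none of these differences reached 2-fold. Against wild-type organoids miR-34a-5p was 2-fold higher in treated tumour organoids, at 1.41, where 1.27% of all probes were. It was the only one of the 10 to pass 2-fold in any comparison.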

How the data were processed

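RNA was labelled with Hy5 and each of 3 arrays was read at 635 nm at 3 gains, per the file headers and labels. The deposited scanner intensity is a spot median with no background subtracted; the array platform is not given in the sources used here. The table of the authors' values also holds an intensity, linear and uncentred as its values show: the spot median minus the blank level, multiplied by 1 factor per array (2.14, 1.58 and 2.08), with each column's median at 25 and probes near background unlisted. Here limma 3.58.1 (R 4.3.3) fitted normexp with a robust blank mean and SD, added 50 and quantile normalized all probes. Blank means, with 5% trimmed at each end, were 27.3, 29.5 and 22.7 and blank SDs 0.901, 1.14 and 0.750. Probes marked bad were left out, 2 on the wild-type array. Python 3.11.15 with numpy 2.4.6, pandas 2.3.3 and matplotlib 3.10.9 did the rest. Steps were tested on simulated data. Sequences and loci came from RefSeq on GRCm38.p6. Named probes were the members, the 3 nearest patterns to each main strand, and fixed lists. Members and lists were chosen with earlier results of these data known. The number of arrays limits precision.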

Additional observations from a re-analysis of the deposited data

How the results depend on the processing

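No paired analysis was possible because each group had 1 array, and no replicate could be left out. The count of 4 members 2-fold lower in tumour against wild type became 2 with the per-spot background column and was 3 to 6 in the other 11 alternatives. Of all probes, 2.21% were lower with that column and 0.769% to 8.75% in the other 11. In treated tumour against wild type the 4 became 1 with that column and were 3 to 6 otherwise. Of all probes in this comparison, 1.36% were lower with that column. The 3 members under spike scaling stood beside 0.487% of all probes. The authors' values called 6 members and 7.14% of all probes. Subtracting the blank mean alone called 6 members and 11.1% of all probes. In treated against untreated tumour the 0 became 1 in the authors' values and 2 at a 1.5-fold threshold, and stayed 0 in the other 10. Of all probes, 3.95% were lower in the authors' values and 0.591% at 1.5-fold. With the per-spot column miR-192-5p turned to 0.26 (tumour against wild type) and 0.50 (treated tumour against wild type), and miR-215-3p to 0.13 and 0.12. For miR-192-5p that column exceeds the spot itself. For miR-215-3p it exceeds the spot on the wild-type array alone. There it was 113% of the spot, against 74.3% in tumour and 72.8% in treated tumour organoids. Of 168 member differences under an alternative, 83 moved by less than the spike spot error and 85 by more. In all 21 changed sign, 14 of them with the per-spot column, and 4 of these had been past 2-fold. Plain blank mean and SD in place of robust ones, an alternative chosen after seeing the data, gave 3, 0 and 3 members. Of all probes 1.25%, 0.0% and 1.27% were lower with it, in the same order of comparisons. Over all probes, the 14 lower in tumour organoids became 91 with the blank mean subtracted, 35 in the authors' values, 38 at 1.5-fold, 23 with the per-spot column and 8 under spike scaling. Low signal over background limits miR-215-5p in tumour organoids and all passenger strands: their fold sizes rest on the offset.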
